A study of Homo sapiens with 12 samples.

Results

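In the overexpression experiment, 93 of the 25435 genes listed were read in one group of libraries and were at or near 0 in the other. The 85 switched-off genes had a mean of at least 3 CPM (counts per 1000000 counts of the library) in the LNCaP libraries and at most 3 counts in each LNCaP/MUC1-C OE library. The 8 switched-on genes met the same limits with the groups exchanged. Y-linked genes, symbols starting with ZNF, HOX, HIST, KLK, UGT2B or IFI, and PGR, TMPRSS2, FOLH1, ACKR3, GRHL2 and MUC1 itself were left out, which removed 10 genes from the switched-off set and 0 from the switched-on set. The rule chose the genes by their values in these 6 libraries, so those values are given as a description, with no test. Levels in the LNCaP-ER libraries, sequence at the gene start and chromosomal position were not used by the rule.

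LNCaP is a human prostate cancer cell line. MUC1-C is the transmembrane subunit of the mucin MUC1, which carries a short cytoplasmic tail and is known as a signalling oncoprotein that also reaches chromatin. Genes that go from clear expression to none, or the reverse, are commonly those that depend on a cell-type-specific regulator or on the chromatin state of the promoter, such as CpG methylation or Polycomb marks, while most housekeeping genes keep a CpG-rich, active promoter. Prostate luminal cells are marked by secreted kallikreins, simple epithelial keratins and STEAP family genes.

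The study compared 3 LNCaP with 3 LNCaP/MUC1-C OE libraries, and 3 vehicle with 3 DOX libraries of LNCaP-ER cells, all from total RNA of cells grown in triplicate. The LNCaP/MUC1-C OE cells carried MUC1-C in a CMV-driven vector with GFP and a hygromycin marker, but their sample titles carry a shMUC1-C prefix and their treatment label reads tetMUC1-C, neither of which the methods explain for these cells. The LNCaP controls are called wild-type in their labels and vector in the column names, and whether they held an empty vector was not settled. LNCaP-ER cells had been selected in rising enzalutamide, a hormone therapy drug for prostate cancer, for 24 weeks, and both of their groups carried a doxycycline-inducible MUC1 shRNA. Vehicle was 0.1% DMSO and DOX was 500 ng/mL, for 7 days. Whether the transduced cells were a pool or 1 clone is not given in the sources used here. Nothing says that the 3 libraries of a group came from separate transductions, so p-values measure only the spread between these samples.

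Libraries held 18017941 to 19208944 counts in LNCaP, 13806856 to 17583673 in LNCaP/MUC1-C OE, and 28045894 to 45807989 in LNCaP-ER, so that 3 counts amounted to 0.156 to 0.217 CPM in the overexpression experiment and to 0.0655 to 0.107 CPM in LNCaP-ER. MUC1 was counted 30, 25 and 31 times in LNCaP and 9168, 9959 and 12622 times in LNCaP/MUC1-C OE. It was counted 26, 10 and 13 times in the vehicle libraries and 3, 42 and 8 times in the DOX-labelled libraries. In MUC1 counts, the library labelled DOX replicate 2 therefore went against its label. It also stood apart in that 11.2% of its genes were at 0, against 28% to 38.1% in the other LNCaP-ER libraries. The line label was checked against 8 luminal prostate markers, whose summed level was 346 to 358 CPM in LNCaP, 77.9 to 84.9 CPM in LNCaP/MUC1-C OE and 3244 to 3346 CPM in LNCaP-ER vehicle. STEAP2, a metalloreductase of prostate epithelium, averaged 40.3 CPM in LNCaP and 2318 CPM in LNCaP-ER vehicle, and KRT8, a luminal keratin, 163 and 142 CPM. KLK3, which encodes PSA, averaged 24.8 CPM in LNCaP and was at 0 in each LNCaP/MUC1-C OE library, as was KLK2. For KLK2, KLK3 and KRT8, DOX replicate 2 lay above every vehicle library, as did the other DOX-labelled libraries. For STEAP2 it lay above every vehicle library, while the other DOX-labelled libraries lay below. Of the 8 markers, 7 reached a mean of 3 CPM in LNCaP, 5 in LNCaP/MUC1-C OE and 8 in LNCaP-ER vehicle. TRPM8 is among these markers and is also a switched-off gene, so the rule fixed its place in the LNCaP and LNCaP/MUC1-C OE counts. Endothelial and immune markers were low, and their summed levels too were lower in LNCaP than in LNCaP-ER vehicle. The summed level of 4 endothelial markers was 0.547 to 0.833 CPM in LNCaP and 2.78 to 4.68 CPM in vehicle. That of 4 immune markers was 1.55 to 2.60 and 5.02 to 7.45 CPM. In vehicle, VWF made up nearly all of the endothelial sum and CD68 all of the immune sum. KDR and CD14 were instead higher in LNCaP, at 0.416 to 0.555 and 0.111 to 0.469 CPM, and at 0 in each vehicle library. The summed levels of the neuroendocrine, basal and fibroblast lists were higher in LNCaP than in vehicle. The summed level of 4 neuroendocrine markers was 29.4 to 32.7 CPM in LNCaP and 0.456 to 0.814 CPM in vehicle, that of 5 basal markers 181 to 197 and 26.1 to 30.9 CPM, and that of 6 fibroblast markers 57.2 to 62.7 and 9.84 to 16.9 CPM. The basal sum was nearly all DST, with KRT5 at 0 in each of these libraries, and the fibroblast sum mostly COL1A1. The LNCaP libraries thus held most luminal markers, but their marker profile differed from that of LNCaP-ER cells, which touches every comparison of members between these experiments. The part of these differences in the results below was not tested. In bulk RNA, fewer cells of a type and less RNA per cell cannot be told apart.

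The 85 switched-off genes made up 0.738% of the 11525 genes with at least 3 CPM in LNCaP once the left-out families were set aside, and the 8 switched-on genes 0.0732% of the 10936 such genes in LNCaP/MUC1-C OE. Mean levels of the switched-off genes in LNCaP ran from 3.02 to 44.9 CPM, with a median of 5.52. Across the 3 LNCaP libraries their coefficient of variation ran from 1.57% to 34.7%, with a median of 8.28%. The ratio between the groups of summed counts over summed library totals, or the bound that 3 counts over the group allow where no read was counted, was smallest for TMEFF2, a transmembrane protein with EGF and follistatin domains, at 26.1 (11.8 to 72.1). For 12 of them no read was counted in any LNCaP/MUC1-C OE library. These were LAMP3, FUT4, GRIA4, NRG3, NETO1, VAT1L, BARX1, CCDC68, CRYGD, RAMP2-AS1, PPP2R2B and DTX1.

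JAKMIP2, which encodes a protein that binds microtubules and Janus kinases, had the highest CPM of the set. It was counted 864, 780 and 847 times in LNCaP and 1, 0 and 3 times in LNCaP/MUC1-C OE. The groups were separated by a ratio of 528 (exact 95% interval 206 to 1939, counting error only). The gene lies at chr5:147585438-147782728 in GRCh38.p14. TMEM246, now named PGAP4 and encoding a Golgi enzyme that modifies GPI anchors, was counted 354, 329 and 359 times in LNCaP against 0, 1 and 1 time in LNCaP/MUC1-C OE, a ratio of 442 (122 to 3652). ZSCAN18, a zinc finger gene, led the switched-on genes. It was counted 2, 2 and 3 times in LNCaP and 249, 190 and 280 times in LNCaP/MUC1-C OE, a ratio of 121 (58.5 to 302).

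Shown are the bases before the start of these 3 genes, which ranked 1 and 2 (switched off) and 1 (switched on) by mean CPM. The ratio of observed to expected CpG at the start was 0.208 in JAKMIP2, 0.669 in TMEM246 and 0.98 in ZSCAN18. For TMEM246 the first RefSeq start listed was used, which lies inside the gene span of chr9:101473170-101533686, so the run is before that start and not before the whole gene. Each run ends where the nearest exon of GENCODE 29 begins, lies on the minus strand of GRCh38.p14 (RefSeq), and reads 5′ to 3′ with each CpG in capitals.
JAKMIP2, chr5:147782849-147782978: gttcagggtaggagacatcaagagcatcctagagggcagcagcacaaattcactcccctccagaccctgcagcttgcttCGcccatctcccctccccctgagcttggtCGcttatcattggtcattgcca
TMEM246, chr9:101487194-101487423: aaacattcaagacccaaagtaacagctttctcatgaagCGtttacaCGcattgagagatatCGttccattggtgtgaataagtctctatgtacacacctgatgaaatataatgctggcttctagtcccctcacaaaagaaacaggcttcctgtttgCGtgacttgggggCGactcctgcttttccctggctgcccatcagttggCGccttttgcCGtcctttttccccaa
ZSCAN18, chr19:58118428-58118654: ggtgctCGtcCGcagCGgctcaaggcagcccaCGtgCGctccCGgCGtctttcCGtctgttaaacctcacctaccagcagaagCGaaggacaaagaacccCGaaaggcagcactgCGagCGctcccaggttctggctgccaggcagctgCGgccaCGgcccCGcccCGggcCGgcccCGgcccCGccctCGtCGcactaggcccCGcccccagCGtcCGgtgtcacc
The JAKMIP2 run holds 2 CpGs in 130 bases, the TMEM246 run 7 in 230 bases and the ZSCAN18 run 24 in 227 bases.

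**Figure D1:**
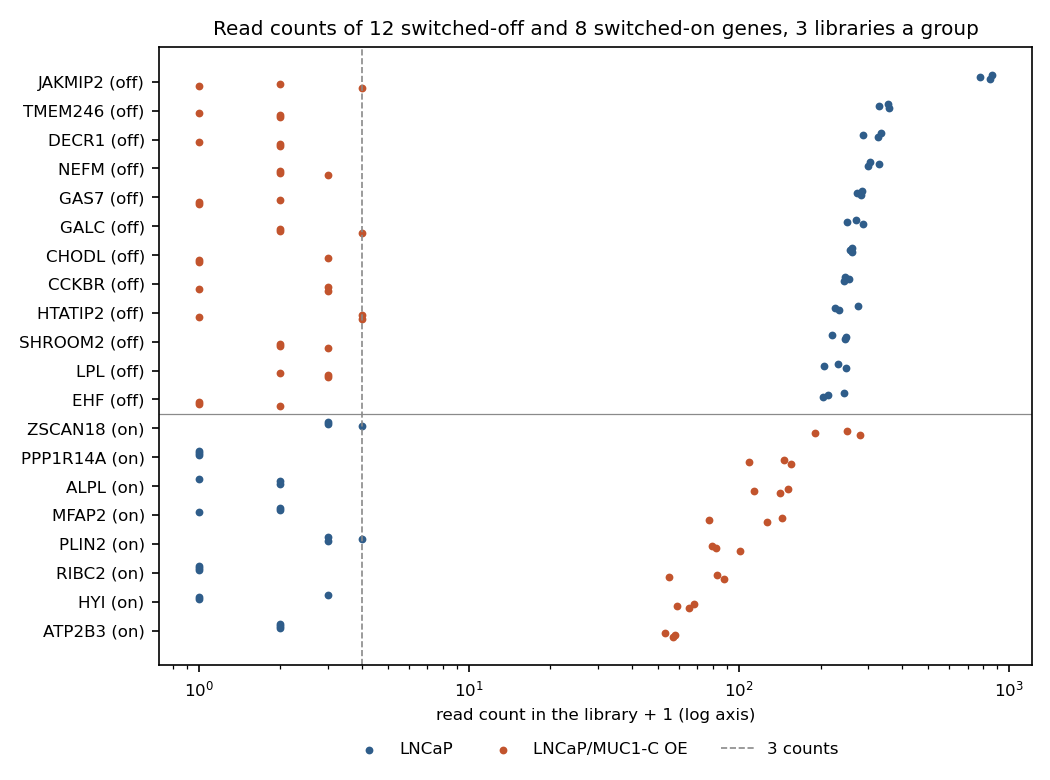
Read counts plus 1 on a log axis for the 12 switched-off genes of highest mean CPM and all 8 switched-on genes, with 1 point per library, LNCaP in blue and LNCaP/MUC1-C OE in orange, and the limit of 3 counts dashed. JAKMIP2 sits at 780 to 864 counts in LNCaP and 0 to 3 in LNCaP/MUC1-C OE, and every gene plotted keeps the silent group at or under the dashed line, as the rule demands.

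Among the other leading switched-off genes, DECR1, a mitochondrial enzyme of unsaturated fatty acid oxidation, was counted 335, 286 and 325 times in LNCaP and 0, 1 and 1 time in LNCaP/MUC1-C OE. NEFM, the medium neurofilament chain, was counted 303, 329 and 300 times against 1, 1 and 2 times. EHF, an epithelial transcription factor of the ETS family, was counted 243, 212 and 204 times against 0, 0 and 1 time. The remaining genes of the leading 12 were GAS7, GALC, the lysosomal galactosylceramidase, CHODL, CCKBR, the cholecystokinin B receptor, HTATIP2, SHROOM2, a regulator of epithelial cell shape, and LPL, lipoprotein lipase. Each of these was counted 205 to 285 times in every LNCaP library and 0 to 3 times in every LNCaP/MUC1-C OE library.

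Grouped by what they are known to do, 11 of the 85 encode ion channels, transmitter receptors or their partners. They are UNC80, a subunit of the sodium leak channel, the potassium channel genes KCNK2, KCNA1 and KCND2, the cold and menthol channel TRPM8, the GABA and AMPA receptor subunits GABRA2 and GRIA4, the GABA-B partner KCTD8, the kainate receptor partner NETO1, CCKBR and the orphan receptor GPR158. Their LNCaP means ran from 3.60 to 13.4 CPM, and no LNCaP/MUC1-C OE library exceeded 0.171 CPM for any of them. KCNA1 was counted 97, 94 and 91 times in LNCaP and 0, 1 and 0 times in LNCaP/MUC1-C OE. A further 9 encode proteins of synaptic vesicles, exocytosis or postsynaptic scaffolds, namely SYT4, SYT9, RAB3C, RIMBP2, SHANK2, DLGAP1, LRRC7, MYRIP and TMEM163. SHANK2, a postsynaptic scaffold also present in epithelia, was counted 113, 129 and 96 times in LNCaP and 1, 0 and 1 time in LNCaP/MUC1-C OE. These role groups were set from general knowledge with the members in view, and so carry no test.

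Cytoskeletal, adhesion and matrix proteins accounted for 14 members. These were JAKMIP2, NEFM, GAS7, LSAMP, IGLON5, PARVA, SHROOM2, SORBS2, MYO3A, KLHL4, CHODL, LOXL4, ADAMTS8 and VAT1L, with LNCaP means of 4.40 to 44.9 CPM. PARVA, which links integrins to actin, was counted 140, 166 and 167 times in LNCaP and 1 time in each LNCaP/MUC1-C OE library. Transcription factors and cofactors accounted for 12 members, EHF, TOX3, DMRTA2, PAX1, BARX1, LMO3, LDB2, IKZF1, FLI1, PEG3, SP140L and TGFB1I1. TOX3, an HMG-box factor, was counted 153, 167 and 139 times in LNCaP and 0, 1 and 1 time in LNCaP/MUC1-C OE. PEG3, an imprinted zinc finger gene, was counted 209, 144 and 144 times against 1, 0 and 1 time.

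Enzymes and transporters of metabolism accounted for 15 members. Besides DECR1, LPL and GALC, they included AKR1C1 and AKR1C2, which reduce steroids such as dihydrotestosterone, PTGIS, the prostacyclin synthase, the glycan enzymes CHST6, FUT4, FUT9 and ST6GAL2, DGKK, PDE1C, the cationic amino acid transporter SLC7A3, HTATIP2 and TMEM246. AKR1C2 was counted 133, 105 and 99 times in LNCaP and 1, 1 and 2 times in LNCaP/MUC1-C OE, and AKR1C1 76, 64 and 65 times against 0, 0 and 1 time. These near-identical genes share reads, so how the counts divide between them is uncertain. Ligands, receptors and signalling adaptors made up another 15, among them NRG3, a ligand of ERBB4, PTPRZ1, TMEFF2, FAM150A, now ALKAL1 and a ligand of the ALK receptor, DTX1, a Notch pathway ubiquitin ligase, PTCHD4, LAMP3, LGALS8, DOCK10, PPP2R2B, DAB1, STAC, BAALC, TRIM58 and EPSTI1. The last 9 were LRRC34, C8orf31, TMCO4, CCDC68, TUNAR, CRYGD, RAMP2-AS1, LOC100996579 and C4orf19. RAMP2-AS1 is antisense to another gene, and since the strand setting of the counting is not stated, its reads are uncertain.

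The 8 switched-on genes had means of 3.55 to 15.2 CPM in LNCaP/MUC1-C OE, with a median of 6.39. PPP1R14A, an inhibitor of myosin phosphatase, was counted 146, 108 and 154 times in LNCaP/MUC1-C OE and 0 times in each LNCaP library, which made it at least 160.4-fold higher (3 counts over the group). RIBC2, a protein of ciliary microtubules, was counted 82, 54 and 87 times and likewise 0 times in LNCaP, at least 87.7-fold higher. ALPL, the tissue-nonspecific alkaline phosphatase, was counted 150, 112 and 141 times against 0, 1 and 1 time. MFAP2, a microfibril glycoprotein, was counted 143, 76 and 126 times against 1, 1 and 0 times. PLIN2, which coats lipid droplets, had 78, 81 and 100 counts against 2, 3 and 2, the smallest ratio of the 8, at 43.6 (20.9 to 110). HYI, a putative hydroxypyruvate isomerase, had 67, 58 and 64 counts against 2, 0 and 0. ATP2B3, a plasma membrane calcium pump, had 52, 57 and 56 counts against 1 in each LNCaP library.

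The limits of the rule cut through a continuum. Just inside the CPM limit were TRIM58 at 3.02, FAM150A at 3.15 and LGALS8 at 3.15 CPM in LNCaP, and just outside it were GFRA2 at 2.98, CDYL2 at 2.96 and LOC283683 at 2.91 CPM. For the switched-on genes, the lowest were ATP2B3 at 3.55, HYI at 4.04 and RIBC2 at 4.70 CPM, and the nearest outside were GJB7 at 2.51, LIPE at 2.26 and DCX at 2.25 CPM. The count limit was reached, with a highest silent count of 3, by 14 switched-off and 2 switched-on genes. A further 16 genes above 3 CPM in LNCaP were kept out by a highest count of 4, among them SYK, SNX19 and CDH1. CDH1, encoding E-cadherin, was counted 460, 436 and 373 times in LNCaP and 1, 1 and 4 times in LNCaP/MUC1-C OE.

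In the same experiment 67.3% of the 13836 genes tested passed an adjusted p under 0.05 (edgeR quasi-likelihood test), 33.2% higher and 34.1% lower in LNCaP/MUC1-C OE. Scaling by library size alone changed the share of higher calls among all calls from 49.4% to 32.3%. Beside that background, 8 of 62 potassium, calcium and sodium channel genes tested were higher and 37 lower, the latter including the members KCNA1, KCND2 and KCNK2. Of 36 genes of glutathione, aldehyde and aldo-keto detoxification, 8 were higher and 19 lower, including AKR1C1 and AKR1C2. Of 28 imprinted genes 11 were higher and 8 lower, including PEG3, and of 96 homeobox genes outside the HOX clusters 30 were higher and 31 lower, including BARX1, a homeobox factor of foregut and craniofacial development. The other 5 lists held no member. In these lists, 0 of 9 cancer/testis antigen genes were higher and 7 lower, 1 of 31 cadherin genes was higher and 21 lower, 0 of 9 keratin and claudin genes were higher and 6 lower, 27 of 87 axon guidance and synaptic adhesion genes were higher and 39 lower, and 11 of 49 TGF-β, BMP and FGF ligand and receptor genes were higher and 26 lower. The rule used this contrast, so nothing about the members is drawn from these counts.

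The LNCaP-ER libraries gave a second view of the members that the rule had not used. The 2 experiments were deposited in separate tables, and levels across them share only the division by library total. Of the 85 switched-off genes 82 were listed there, all but C8orf31, LOC100996579 and C4orf19. Among these 82, 18 (22%) had a mean of at least 3 CPM in the vehicle libraries, 39 (47.6%) had at most 3 counts in each vehicle library, and 25 lay between. Over all 11371 genes with at least 3 CPM in LNCaP and listed in both tables, the corresponding shares were 85.7% and 4.56%. Among genes with 3 to 10 CPM in LNCaP, 22.7% of 66 switched-off genes and 54.4% of all 1734 genes had at least 3 CPM in vehicle, and 45.5% and 14.2% had at most 3 counts in each vehicle library. Of the 8 switched-on genes, 1 had at least 3 CPM in vehicle and 6 had at most 3 counts in each vehicle library, where 88.4% and 3.44% of the 10809 genes with at least 3 CPM in LNCaP/MUC1-C OE did so. Among genes with 3 to 10 CPM in LNCaP/MUC1-C OE, 0 of 7 switched-on genes and 63.3% of all 1634 genes had at least 3 CPM in vehicle, and 85.7% and 9.98% had at most 3 counts in each vehicle library. No test was made of these shares.

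**Figure D2:**
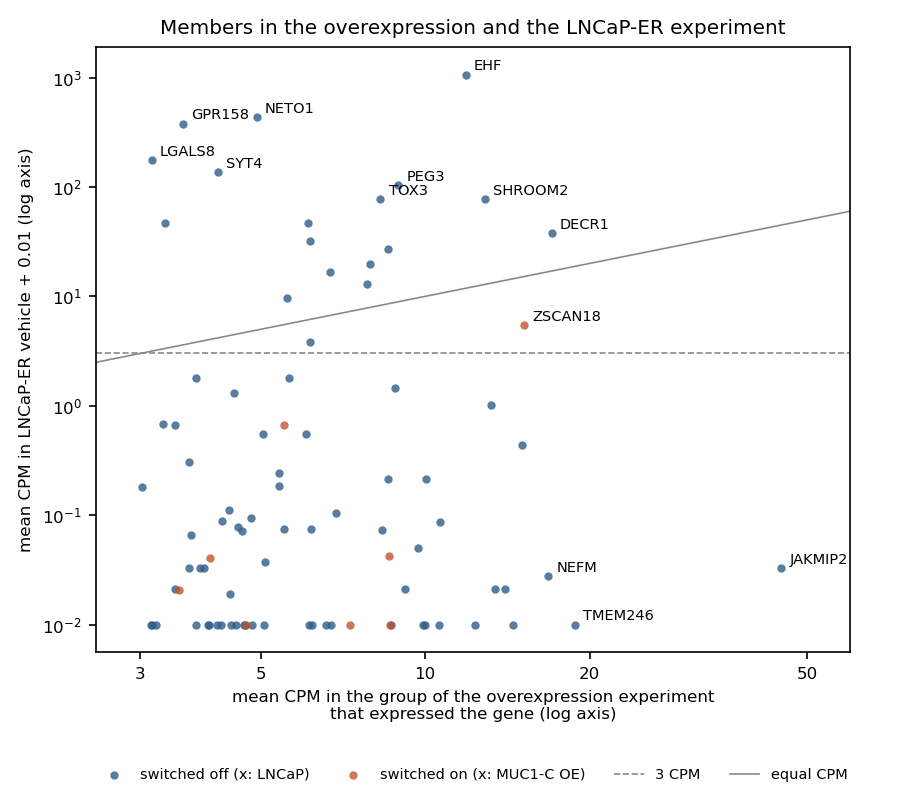
Mean CPM of each member in the group of the overexpression experiment that expressed it (horizontal, log axis) against its mean CPM plus 0.01 in LNCaP-ER vehicle (vertical, log axis), with switched-off genes in blue, switched-on genes in orange, 3 CPM dashed and equal CPM as a line. EHF reaches 1067 CPM in LNCaP-ER vehicle while TMEM246 is at 0 there, and the bottom of the plot holds the members with no read in the vehicle libraries.

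The switched-off genes took unlike levels in LNCaP-ER cells. EHF, with a mean of 11.9 CPM in LNCaP, was counted 45393, 30359 and 29254 times in the vehicle libraries and 33626, 25519 and 39626 times in the DOX-labelled libraries, a vehicle mean of 1067 ± 133 CPM (SD, n = 3). NETO1 averaged 436 ± 68.6 CPM, GPR158 380 ± 106, LGALS8 175 ± 22.1, SYT4 136 ± 55.9 and PEG3 104 ± 14.2 CPM in vehicle (SD, n = 3). These 6 genes are the switched-off genes with at least 100 CPM in vehicle. Their LNCaP level was 0.946% to 8.55% of their LNCaP-ER vehicle level. No switched-off gene exceeded 44.9 CPM in LNCaP, so a percentage under 100 was set by this choice. Of the 18 genes with at least 3 CPM in vehicle, 17 were lower in LNCaP than in vehicle, the exception being FUT4, a fucosyltransferase, at 6.14 and 3.81 CPM. The 18 were taken by their vehicle level, and the same count over all genes was not made. It therefore describes only these genes. Beside these, 7 of the 8 luminal markers were also lower in LNCaP, all but KRT8, with STEAP2 at 1.74% of the vehicle level. TRPM8, itself a luminal marker and a member, stood at 6.68 CPM in LNCaP and 16.8 CPM in vehicle. It is counted both among the 17 genes and among the 7 markers.

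DECR1 had 1241, 1261 and 1142 counts in vehicle and 1171, 1229 and 1439 in the DOX-labelled libraries, so that it was read in all LNCaP-ER and LNCaP libraries and at most 1 time in each LNCaP/MUC1-C OE library. ZSCAN18, the leading switched-on gene, had 238, 132 and 164 counts in vehicle and 164, 239 and 269 in the DOX-labelled libraries. Its level in vehicle was 5.42 ± 1.06 CPM (SD, n = 3), against 0.126 CPM in LNCaP and 15.2 CPM in LNCaP/MUC1-C OE.

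Many of the leading switched-off genes were silent in LNCaP-ER as well. JAKMIP2 was counted 0, 0 and 2 times in vehicle, TMEM246 0 times in each vehicle library, and NEFM 2, 0 and 0 times. GALC and LPL had no read in vehicle, and CHODL and CCKBR had 1 read in vehicle replicate 3 alone. GAS7 and HTATIP2 were low, with 12, 14 and 15 and with 36, 30 and 32 counts in vehicle. Their counts in LNCaP, from fewer reads in all, were 271 to 283 and 225 to 275.

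The library labelled DOX replicate 2 differed from the other 5 in these genes. Only 3 of the 82 genes had at most 3 counts in it, against 45, 48 and 48 genes in the vehicle libraries and 43 and 36 genes in the DOX-labelled replicates 1 and 3. The highest of the 6 LNCaP-ER CPM values was in DOX replicate 2 for 74.4% of the 82 genes, against 29.5% of the 11371 genes. The 11371 genes were not matched to the 82 by LNCaP-ER level, with 85.7% against 22% at 3 CPM or more in vehicle. Their share with at most 3 counts was also lowest in DOX replicate 2, at 0.484% against 4.7% to 6.21%. For 26 genes, every other LNCaP-ER library held at most 3 counts while DOX replicate 2 held 4 to 41, with a median of 13. CCKBR is an example, with 38 counts in DOX replicate 2, 1 in vehicle replicate 3 and 0 elsewhere. JAKMIP2 was counted 0, 18 and 1 times, TMEM246 0, 14 and 0 times, and LPL 1, 26 and 0 times in the DOX-labelled replicates 1, 2 and 3. Without DOX replicate 2, 28 of the 82 genes had at most 3 counts in all 5 LNCaP-ER libraries, and with it 2 had, KLHL4 and TUNAR. The switched-on genes followed the same library, with 7 of 8 at their highest CPM there, as for ATP2B3 with 30 counts against 0 or 1 elsewhere.

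**Figure D3:**
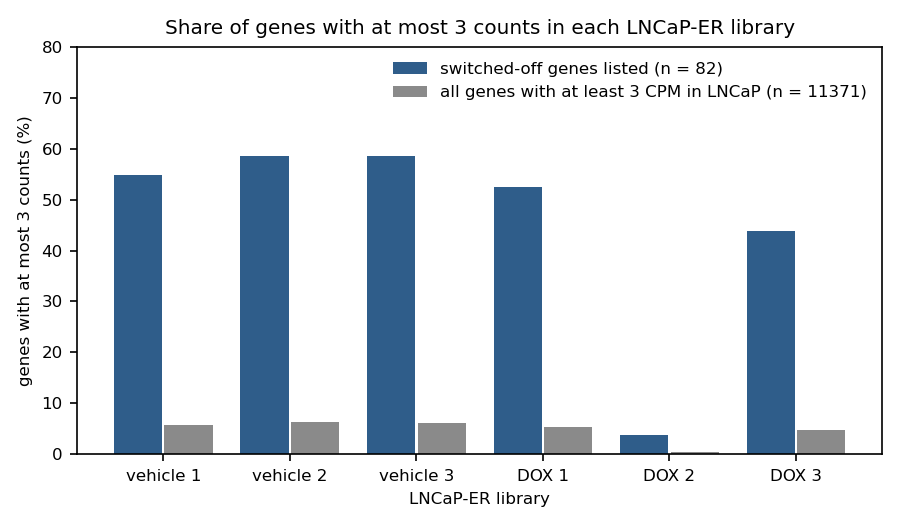
Percent of genes with at most 3 counts in each LNCaP-ER library, for the 82 switched-off genes listed (blue) and for all 11371 genes with at least 3 CPM in LNCaP (grey). Switched-off genes are at 43.9% to 58.5% in 5 libraries and 3.66% in DOX replicate 2, and all genes fall from 4.7% to 6.21% in those 5 libraries to 0.484% in that one.

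Whether the members differed between DOX and vehicle was tested in the 6 LNCaP-ER libraries. No library of control shRNA cells given DOX is among them. Effects of DOX itself and of MUC1 silencing therefore cannot be told apart. Of the 14683 genes tested with edgeR's quasi-likelihood test, 27.3% passed an adjusted p under 0.05, 12.8% higher and 14.5% lower in the DOX-labelled libraries. Only 31 of the 85 switched-off genes passed the filter on low counts, and of these 5 rose and 3 fell, near the shares over all genes. Their median log2 fold change was -0.10, beside -0.017 over all genes tested. The groups did not overlap in 9 of the 31 with DOX higher and in 4 with DOX lower, where 26% and 18.7% of all genes did so. Without DOX replicate 2, 35.3% of 14848 genes were called, 18% higher and 17.3% lower, and of the 31 members 6 rose and 7 fell. Of the 8 switched-on genes 2 were tested, and neither passed. In the lists that hold members, 4 of 35 channel genes tested rose and 1 fell, 7 of 31 detoxification genes rose and 3 fell, 5 of 25 imprinted genes rose and 5 fell, and 4 of 60 homeobox genes rose and 7 fell.

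Of the 3 genes that fell, TOX3 did so most. It was at 3288, 2090 and 2268 counts in vehicle and 307, 636 and 329 in the DOX-labelled libraries, or 77.8 ± 10.2 against 13.1 ± 8.40 CPM (SD, n = 3). All 3 libraries labelled DOX were below all 3 vehicle libraries, with a log2 fold change of -2.67 ± 0.36 (SE, edgeR adjusted p = 0.0015). The difference was -3.25 without DOX replicate 2, in which TOX3 was highest of the 3. NETO1 fell from 436 ± 68.6 to 243 ± 35.4 CPM, by a log2 fold change of -0.91 ± 0.14 (edgeR adjusted p = 0.0027), again with no overlap. On the deposited TPM values the adjusted p of NETO1 was 0.195 to 0.458 (limma), and it was not called. The fits on TPM were shifted upward over all genes, with 94.5% to 97.5% of their calls higher. SORBS2, an adaptor of actin and focal adhesions, was at 916, 500 and 537 counts in vehicle and 274, 487 and 377 in the DOX-labelled libraries. By CPM its groups overlapped through DOX replicate 2, and the log2 fold change was -0.89 ± 0.28 (edgeR adjusted p = 0.042).

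SHANK2 and PEG3 rose. SHANK2 was at 1837, 1412 and 1338 counts in vehicle and 2297, 2469 and 3473 in the DOX-labelled libraries, or 46.9 ± 2.17 against 77.9 ± 9.30 CPM. Its log2 fold change was 0.66 ± 0.097 (SE, edgeR adjusted p = 0.0023). PEG3 was at 104 ± 14.2 CPM in vehicle and 198 ± 23.1 CPM in the DOX-labelled libraries, a log2 fold change of 0.86 ± 0.13 (edgeR adjusted p = 0.0024). In both genes every library labelled DOX was above every vehicle library. These calls, like that of TOX3, held in each of the 15 alternative fits. Those fits include the ones on TPM, which were shifted upward over all genes.

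SHROOM2 and PARVA rose by less, with log2 fold changes of 0.39 ± 0.098 and 0.43 ± 0.13 (edgeR adjusted p = 0.020 and 0.034). SHROOM2 averaged 77.8 ± 0.37 CPM in vehicle and 107 ± 7.44 CPM in the DOX-labelled libraries, and PARVA 27.3 ± 1.87 and 38.6 ± 3.66 CPM. The calls of SHROOM2, PARVA and SORBS2 were lost when any 1 library other than DOX replicate 2 was left out, with adjusted p values up to 0.081, 0.12 and 0.65 over all alternatives. UNC80 was called higher from 6, 0 and 2 counts in vehicle and 16, 41 and 16 in the DOX-labelled libraries. Its log2 fold change of 3.11 ± 0.95 (edgeR adjusted p = 0.040) was no longer called when any 1 library was left out, and was 2.31 (adjusted p = 0.069) without DOX replicate 2.

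**Figure D4:**
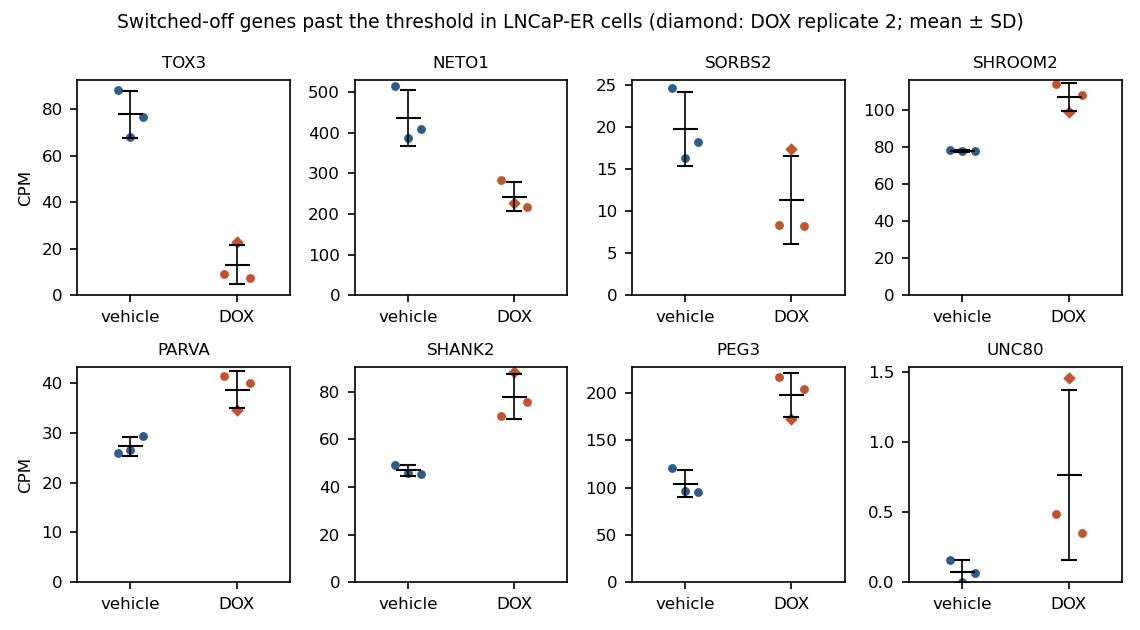
CPM in each LNCaP-ER library of the 8 switched-off genes with an adjusted p under 0.05, with 1 point per library, DOX replicate 2 as a diamond, and the mean ± SD of 3 libraries in black. TOX3 and NETO1 show no overlap between vehicle and DOX, while in SORBS2 the diamond lies among the vehicle points.

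LGALS8, a galectin, depended on that library. It was at 7448, 4898 and 4866 counts in vehicle and 3011, 13228 and 4809 in the DOX-labelled libraries, a log2 fold change of 0.25 ± 0.54 (edgeR adjusted p = 0.77). Without DOX replicate 2 the log2 fold change was -0.84 (adjusted p = 0.00073). HTATIP2, an oxidoreductase, with 36, 30 and 32 counts against 5, 19 and 6, changed from -1.79 (adjusted p = 0.078) to -2.83 (adjusted p = 0.0042). EHF differed by -0.26 ± 0.12 (edgeR adjusted p = 0.13), and ZSCAN18 by 0.17 ± 0.24 (adjusted p = 0.62), with overlapping groups in both.

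Of the 85 switched-off genes 84 were matched to RefSeq, and 82 of these are annotated as protein coding. All 8 switched-on genes were matched and are protein coding. The 84 matched switched-off genes lay on 20 of 22 autosomes and on X, with none on chromosomes 15 and 22. Chromosome 11 held 10 of them (11.9%), beside 5.78% of all genes with at least 3 CPM in LNCaP, and chromosome 18 held 4 (4.76% beside 1.5%). Chromosomes 17 and 19 held 2 each (2.38%, beside 6.07% and 5.31%). Members within 1000000 bases of another member were few. AKR1C1 and AKR1C2 lay 4491 bases apart on chromosome 10 with no protein-coding gene between them, as did GPR158 and MYO3A, a stereocilia myosin, at 331999 bases. CCKBR and SYT9 lay 966650 bases apart on chromosome 11 with 14 expressed genes between them, whose median log2 difference was -0.10.

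PPP2R2B, a regulatory subunit of phosphatase PP2A, and JAKMIP2 lay 503917 bases apart on chromosome 5. Of the 2 protein-coding genes between them, the 1 with at least 3 CPM was DPYSL3, which acts in growth cone guidance and is named here after its values were seen. DPYSL3 went from 53.9 CPM in LNCaP to 1.01 CPM in LNCaP/MUC1-C OE, a log2 fold change of -5.53 ± 0.13 (SE, edgeR adjusted p = 1.4e-15). On the other side of JAKMIP2, the nearest expressed gene was FBXO38, at 56.2 and 36.1 CPM. The nearest protein-coding gene with at least 3 CPM was taken on either side of every switched-off gene. These 163 neighbours had a median log2 difference of -0.044, and 11.7% were called lower by at least 1 on the log2 scale. The values were 0.019 and 6.67% over all 11901 genes with at least 3 CPM in LNCaP, members left out. That wider set was not limited to protein-coding genes.

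A 300-base window at the gene start, from 250 bases before to 50 after it, was found for 61 switched-off and 7 switched-on genes. The ratio of observed to expected CpG had a median of 0.739 in the switched-off genes (quartiles 0.48 and 0.865), 0.785 in the switched-on genes, and 0.853 (0.726 and 0.959) in 9671 other genes with at least 3 CPM in LNCaP. In the 1321 others with 3 to 10 CPM it was 0.791. A CpG-rich window, with a ratio of at least 0.6 and at least 50% GC, was found in 37 of 61 switched-off genes (60.7%), in 84.2% of the others and in 74.6% of those with 3 to 10 CPM. JAKMIP2 had a ratio of 0.208, AKR1C2 0.236, TRPM8 0.238 and ZSCAN18 0.98.

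**Figure D5:**
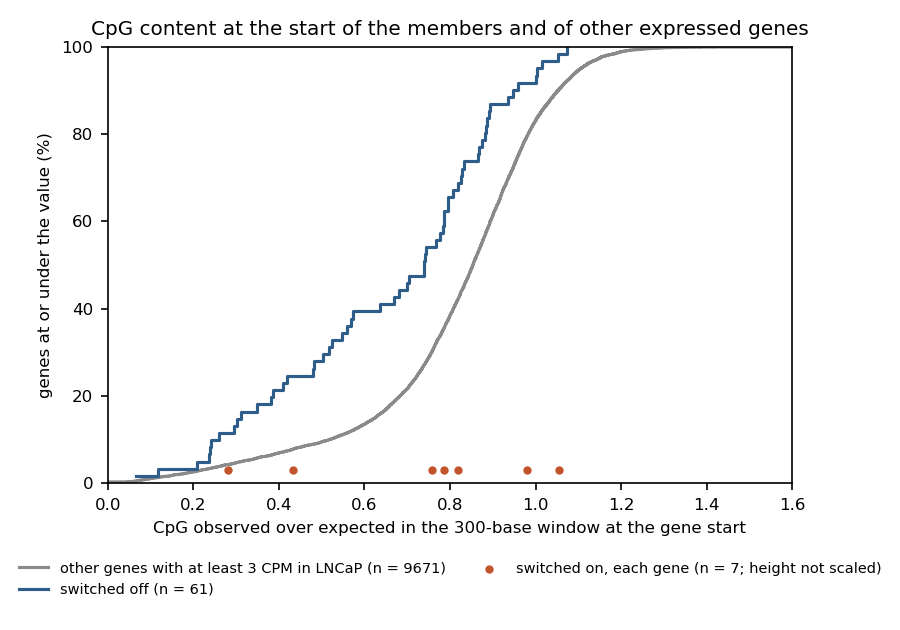
Cumulative percent of genes (vertical) by the ratio of observed to expected CpG in the 300-base window at the gene start (horizontal), for 61 switched-off genes (blue) and 9671 other genes with at least 3 CPM in LNCaP (grey), with each of 7 switched-on genes as an orange point at the foot. The blue line lies to the left of the grey one, with medians of 0.739 and 0.853.

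The windows were also searched on both strands for exact motifs, each counted apart so that hits may share a base. GGGCGG, the core of the GC box, was in 37 of 61 switched-off windows (60.7%) and 72.3% of the others. It was in 68.6% of the others with 3 to 10 CPM in LNCaP and in 44.6% of all 27305 windows of the table. TATAAA was in 4 (6.56%), beside 4.82%, 5.83% and 12% of these sets. CACGTG, the core E-box that MYC and related factors bind, was in 4 (6.56%), beside 10.3%, 8.1% and 7.43%. It was in 3 of 7 switched-on windows, ZSCAN18 among them, beside 10.5% of 9292 other genes with at least 3 CPM in LNCaP/MUC1-C OE. These letter matches are descriptions and not binding sites.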

How the data were processed

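RNA-Seq libraries of LNCaP, LNCaP/MUC1-C OE and LNCaP-ER/tet-MUC1shRNA cells were analysed, with 3 libraries per group and groups taken from the sample labels. The authors prepared stranded mRNA libraries and deposited whole-number counts per gene symbol without normalization. The submitters' processing notes name STAR, DESeq2 and GRCh38, and the annotation, the aligner version and the strand setting of the counting are not given in the sources used here. For LNCaP-ER the authors also deposited TPM values, which served only for alternatives. In the overexpression table, 12 columns of other cell lines were not used. The control columns of that table are named vector and were matched to the LNCaP samples by cell line and replicate number.

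The members, role groups and gene lists were chosen with earlier results of these data known. CPM is the count over the column total. Ratios were taken between summed counts over summed totals, with exact 95% intervals, and a group with no read was set to 3 counts. The counts carry no molecular identifiers, so intervals and bounds cover counting error only. All genes of each experiment were fitted with edgeR 4.0.16 in R 4.3.3 (TMM, filterByExpr, robust quasi-likelihood test, Benjamini-Hochberg adjustment over all genes tested), with no replicate block, and the procedure was tested on simulated data. Every pair of replicates differed by more than sampling noise. DESeq2 1.42.0, limma 3.58.1 on TPM, other scalings and filters, and leaving out each library were alternatives. The use of DOX in place of vehicle libraries, the limit of 0.2 CPM and the comparison with genes of 3 to 10 CPM were chosen after seeing the data.

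Named in the text were the 12 switched-off genes of highest CPM, all switched-on genes, members past the threshold in LNCaP-ER, genes at the limits of the rule, members of the lists and members near another member. Others are named by role or as examples chosen after their values were seen. Genes were matched by symbol or synonym to RefSeq of GRCh38.p14, and promoter windows are the first entry of each gene there, some of which have several starts. No sequence of chromosome 8 is shown. Some planned markers and motifs are not reported here.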

Additional observations from a re-analysis of the deposited data

How the results depend on the processing

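The number of switched-off and switched-on genes depended on the limits of the rule. It was 209 and 17 at a mean of at least 1 CPM, 48 and 5 at 5 CPM, and 16 and 1 at 10 CPM. With 0 counts demanded in every silent library it was 12 and 2, and with up to 10 counts allowed 159 and 12. Leaving out 1 library gave 84 to 106 and 8 to 9, TMM scaling 81 and 8, a limit of 0.2 CPM 82 and 8, and keeping the named families 95 and 8. Detection of the switched-off genes in LNCaP-ER gave 17 to 23 under the alternatives, and ZSCAN18 fell below 1 TPM, which left 0 switched-on genes. When a log2 fold change of 1 or more in either direction was also demanded, 1917 genes passed in the overexpression experiment and 988 in LNCaP-ER, and 1 member rose and 1 fell in the latter. Leaving out 1 LNCaP-ER library gave 2002 to 5243 called genes, with 2200 without vehicle replicate 2, 2002 without vehicle replicate 3 and 2067 without DOX replicate 3. Members called higher were then 2 to 6 and members called lower 2 to 7. DESeq2 called 10 members higher and edgeR without a filter 9, while limma on TPM called 1 lower with either pseudocount and without a filter. Scaling by library size alone raised the share of higher calls in LNCaP-ER from 46.8% to 59.6%, and on log2(TPM + 1) it was 95% with a median shift of 0.45. The cause of these differences was not tested. Of 117 alternative values for the 8 called members, 86 stayed past the threshold and 31 did not, with no change of direction.

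Replicates with the same number did not deviate together (r between -0.15 and 0.091), so the numbers pair no samples. With the replicate block 4226 genes were called in LNCaP-ER and 8965 in the overexpression experiment, 6 members rose and 4 fell in LNCaP-ER, and UNC80 was no longer called. Depth limits the silent group, since 3 counts allow up to 0.217 CPM, and 54 switched-off and 6 switched-on genes were too low for a test in LNCaP-ER or not listed there. Some reads of a silent gene may belong to a paralog or an overlapping gene.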
